A study of Homo sapiens with 6 samples.

Results

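The genes described here are 10 genes of the interleukin 6 (IL6) family pathway, namely the ligands IL6, LIF, IL11 and CLCF1, the receptor chains IL6R, IL6ST, OSMR and LIFR, the transcription factor STAT3 and the feedback inhibitor SOCS3. They were chosen by name, with earlier measured differences between DOX and vehicle in these cells in view, and those differences are not used here. All 10 were found among the 19792 gene symbols of the deposited table. The cells were BT-549, a human triple-negative breast cancer line, transduced with a tet-inducible WDR5 shRNA construct and selected with puromycin. The RNA-seq libraries came from 3 vehicle cultures (0.1% DMSO) and 3 cultures given 500 ng/ml doxycycline (DOX), which switches the shRNA on, for 7 days by the paper's text. Every culture carried the WDR5 shRNA, so a control line without it was not part of these samples.

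Cytokines of the IL6 family signal through receptor complexes that contain gp130, the protein encoded by IL6ST. IL6 first binds its own receptor chain IL6R, IL11 binds IL11RA, LIF pairs LIFR with gp130, and oncostatin M (OSM) pairs gp130 with either OSMR or LIFR. CLCF1 binds CNTFR and then LIFR and gp130. The complexes activate JAK kinases, which phosphorylate STAT3, and STAT3 induces SOCS3, an inhibitor that acts on gp130 and the JAK kinases. In breast cancer cells this pathway is known for autocrine IL6 signaling and for its ties to NF-κB.

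The value analysed for each gene was the mean normalized count, which the authors computed over all 6 libraries together. Vehicle and DOX cultures are therefore merged in each value, and the deposited differences between them are not reported. The analysis had no values of single libraries, so no replicate error, no test and no depth of a library can be given. Because 3 of the 6 libraries belong to each group and a count cannot be negative, the mean of either group lies between 0 and 2 times the printed value. The means of all genes sum to 26551206, and 68.5% of the genes reached a mean of 10. WDR5, the silenced gene, had a mean normalized count of 1143, which cannot check the silencing because both groups are in it. The cell line label was compared with marker genes. The mesenchymal genes VIM, CD44, FN1 and ZEB1 had mean normalized counts from 7333 to 48038, whereas ESR1, PGR and the epithelial gene EPCAM were at 0.790, 0.801 and 1.30. ERBB2, at 1221, was not absent as RNA. Among the epithelial genes, CDH1, KRT8 and KRT18 were at 59.6, 57.3 and 435. Of the markers of other cell types, PTPRC and CD14 of leukocytes were at 44.7 and 24.0, and PECAM1 and VWF of endothelium were at 2.86 and 0.621.

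Promoter sequence is shown for 3 of these genes, the receptor chain and the ligand with the highest level per kilobase and the ligand with the lowest count. The bases are the 250 before the RefSeq start site on GRCh38.p14, written 5′ to 3′ on the gene's strand. Capitals mark a match to a short motif of AP-1 (TGANTCA), NF-κB (GGGANNTTC) or STAT (TTCNNNGAA), searched on both strands, where N is any base. The first is chr5:38845762-38846011 on the plus strand, the second chr7:22726950-22727199 on the plus strand and the third chr19:55370464-55370713 on the minus strand.
OSMR: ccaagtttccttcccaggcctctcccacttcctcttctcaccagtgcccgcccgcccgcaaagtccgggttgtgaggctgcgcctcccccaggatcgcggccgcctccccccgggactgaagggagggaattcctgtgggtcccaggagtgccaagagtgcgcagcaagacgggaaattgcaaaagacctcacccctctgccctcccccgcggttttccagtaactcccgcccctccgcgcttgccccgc
IL6: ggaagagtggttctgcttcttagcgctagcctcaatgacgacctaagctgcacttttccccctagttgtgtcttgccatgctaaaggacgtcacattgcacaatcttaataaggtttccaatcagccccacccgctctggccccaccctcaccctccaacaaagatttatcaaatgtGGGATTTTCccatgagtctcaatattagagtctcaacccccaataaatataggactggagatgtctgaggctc
IL11: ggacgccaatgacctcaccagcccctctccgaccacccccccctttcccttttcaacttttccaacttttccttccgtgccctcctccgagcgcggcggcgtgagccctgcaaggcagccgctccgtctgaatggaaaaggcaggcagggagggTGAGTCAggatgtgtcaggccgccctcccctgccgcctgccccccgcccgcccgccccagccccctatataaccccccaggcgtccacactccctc

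The NF-κB match of IL6 starts 73 bases before the start site. Such a match was found in 4.18% of all 35116 RefSeq promoter windows, each of which holds 300 bases (250 before and 50 after a start). The AP-1 match of IL11 starts 96 bases before the start, in a gene that was close to 0 in these cells. AP-1 matches were found in 7.71% of all windows and STAT matches in 7.66%. A window was found for 8 of the 10 genes, and LIF and CLCF1 were not matched. Besides IL11, an AP-1 match was present in the windows of OSMR, from base 4 after the start, and of IL6R, from base 38 after the start. STAT matches were found in LIFR alone, in windows whose start sites lie 821 and 38759 bases upstream of that of its representative transcript. None of the 3 motifs was found in the windows of IL6ST, STAT3 and SOCS3. The SOCS3 windows have start sites 410 bases after and 848 bases upstream of that of its representative transcript. The bases just before the representative start of SOCS3 were therefore not searched. These matches describe letters only, and binding to them was not measured in these data.

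The ligand genes ranged from IL6, the highest of the 4, to IL11, which was close to 0. IL6, which encodes the founding cytokine of the family, had a mean normalized count of 3542 over the 6 libraries. In GENCODE 44 (GRCh38) it spans 22725884 to 22732002 on the plus strand of chromosome 7, and its representative transcript has 5 exons and 1127 bases. LIF, the leukemia inhibitory factor, had a mean normalized count of 2767. It lies on chromosome 22 from 30240453 to 30246759, on the minus strand. Its representative transcript has 3871 bases. CLCF1, the cardiotrophin-like cytokine, had a mean normalized count of 366. It lies on chromosome 11 from 67364168 to 67374177. IL11, on chromosome 19 from 55364382 to 55370463, had a mean normalized count of 1.68, so that neither group can have had a mean above 3.37.

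**Figure D1:**
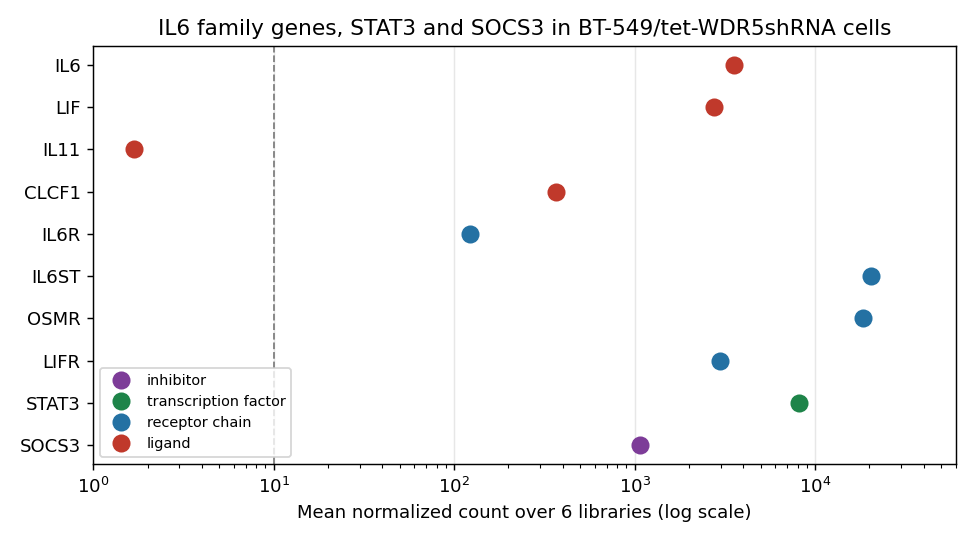
Mean normalized count of the 10 genes over all 6 libraries, on a log axis and not corrected for length. Each point is the authors' mean for 1 gene, colors give the role, and the dashed line is the minimum of 10. IL6ST (20435) and OSMR (18446) lie farthest right, and IL11 (1.68) is the gene to the left of the line.

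The receptor chains were unequal. IL6ST, the shared signal transducer gp130, had a mean normalized count of 20435, and OSMR, the oncostatin M receptor chain, had one of 18446. Ranked by count among the 19792 genes, with no correction for length, IL6ST was at position 121 and OSMR at position 150. Together they held 67.1% of the counts of the 10 genes, likewise not corrected for length. LIFR, the chain for LIF, had a mean normalized count of 2965. IL6R, the chain that binds IL6 itself, had a mean normalized count of 123, and thus at most 246 in either group. The gene for the cytokine therefore had far more counts than the gene for its specific receptor chain, by 28.8 times before any correction for length.

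The 4 ligand genes lie on separate chromosomes, whereas 3 of the 4 receptor chains share chromosome 5. LIFR (38474668 to 38608354, minus strand) and OSMR (38845858 to 38945596, plus strand) are neighbors on it. The gap between them is 238 kb, and GENCODE 44 has 0 protein-coding genes within it. IL6ST (55935095 to 55995022, minus strand) is on the same chromosome, 16989498 bases farther along, with 55 protein-coding genes between it and OSMR. Beside IL6ST lies IL31RA, which encodes a chain that pairs with OSMR for IL31 and ends at 55922854. IL6R is on chromosome 1 from 154405193 to 154469450. STAT3 (42313324 to 42388540) and SOCS3 (78356778 to 78360077) are both on chromosome 17, on the minus strand.

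STAT3, the transcription factor that the receptor complexes activate, had a mean normalized count of 8198. Activation of STAT3 is by phosphorylation, which RNA levels do not show. SOCS3, the feedback inhibitor, had a mean normalized count of 1076, which gives either group at most 2153. The transcripts of these genes differ in structure, with 24 exons in the representative transcript of STAT3 and 2 in that of SOCS3.

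Levels of different genes were compared per kilobase of transcript, as the mean normalized count divided by the length of the representative transcript. Per kilobase the order was OSMR (3338), IL6 (3143), IL6ST (2264), STAT3 (1666), LIF (715), SOCS3 (394), LIFR (281), CLCF1 (214), IL6R (21.3) and IL11 (0.708). The median level of the 13132 genes that had a length and reached a mean of 10 was 208 per kilobase. Of the 10 genes, 8 were at or above this median, CLCF1 only just, and IL6R and IL11 were below it. OSMR was at or above 96.2% of those genes, IL6 95.9%, IL6ST 94.0% and STAT3 91.3%. LIF was at or above 79.4%, SOCS3 65.9%, LIFR 57.5% and CLCF1 50.6%. IL6R was at or above 13.5%. Between neighbors in the order, the level per kilobase differed by 1.06 times for OSMR over IL6, 1.31 times for LIFR over CLCF1, and 10.0 times for CLCF1 over IL6R. No replicate spread was analysed here, so it cannot be said which neighbors differ beyond it. The order within either group also cannot be read from means over both.

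**Figure D2:**
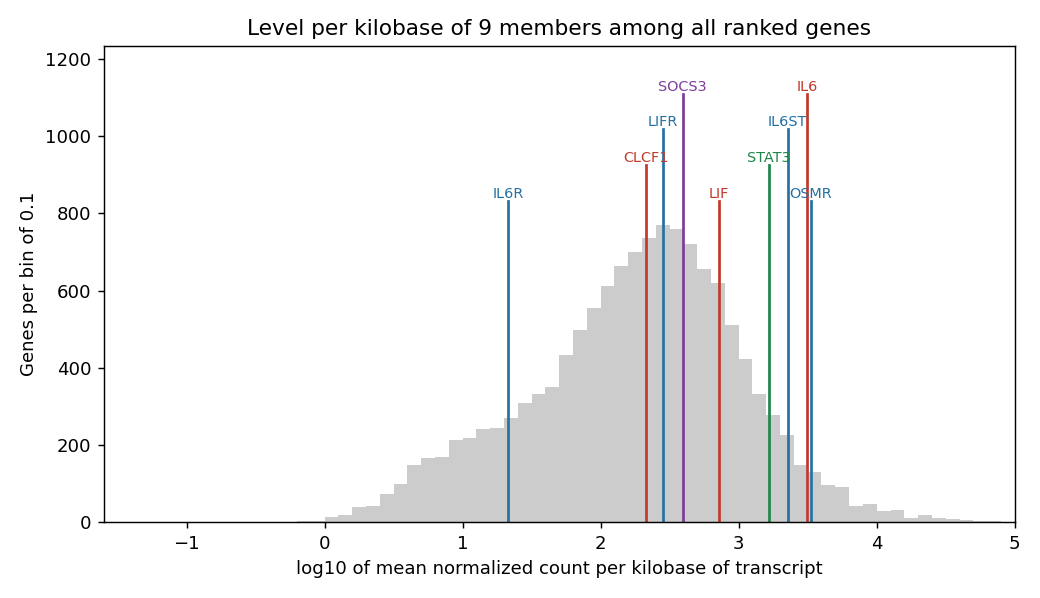
Histogram of the log10 level per kilobase of all 13132 ranked genes in bins of 0.1 (grey bars), with a line for each of the 9 genes that reached a mean of 10 (red ligands, blue receptor chains, green STAT3, purple SOCS3). OSMR, IL6, IL6ST and STAT3 lie in the right shoulder, and IL6R lies in the left shoulder.

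The receptor chains can be set side by side on the per kilobase scale. The level of OSMR was 11.9 times that of LIFR, and the level of IL6ST was 8.06 times that of LIFR. IL6R was the lowest of the 4 chains, and the levels of OSMR and IL6ST were 156 and 106 times its level. With the union of all annotated exons as the length, these 2 ratios were 146 and 96.3. Among the ligands, the level of LIF was 3.33 times that of CLCF1.

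The level of IL6 per kilobase depended on the length taken for its transcript. GENCODE 44 lists 9 transcripts of IL6, of which the longest has 3319 bases, and the union of all its exons covers 4321 bases. The level of IL6 per kilobase fell from 3143 to 1067 with the longest transcript and to 820 with the union. The median of the ranked genes also fell, from 208 to 181 and 128. With these lengths IL6 was at or above 88.6% and 89.6% of the ranked genes. IL6 then followed IL6ST and, with the longest transcript, also STAT3. The ratio of IL6 to LIF was 4.40 with the representative transcripts, 1.49 with the longest and 1.15 with the union. For STAT3, with 50 transcripts, the union of exons lowered the level from 1666 to 731, at or above 88.1% of the ranked genes. The other 8 genes moved by less than 1.5 times.

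**Figure D3:**
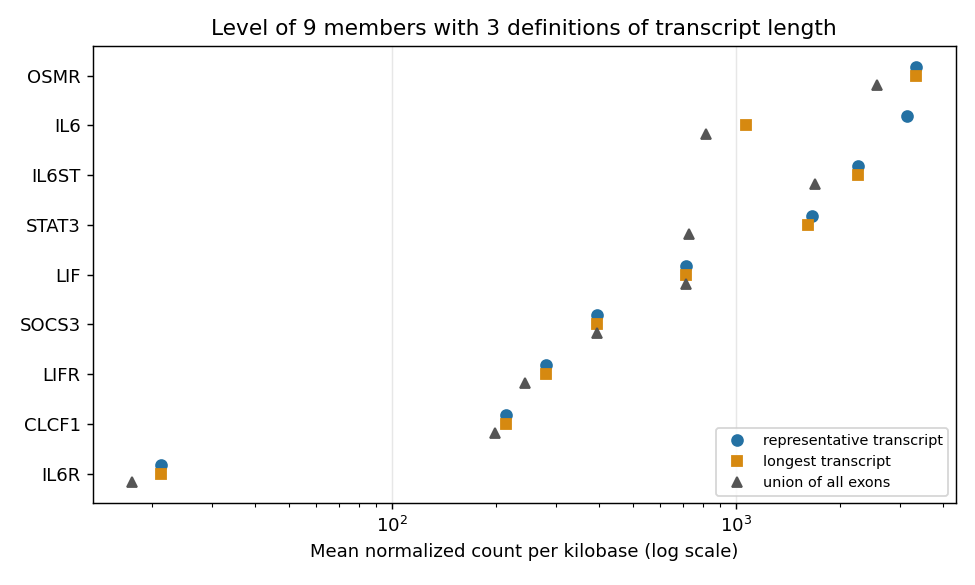
Level per kilobase of 9 genes on a log axis, with the length of the representative transcript (circles), of the longest transcript (squares) or of the union of all exons (triangles). The symbols of IL6 are far apart (3143, 1067 and 820), as is the union symbol of STAT3 (731), whereas LIF and SOCS3 have the same level under all 3 definitions.

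The other ligand genes of the family were low. Of 6 such genes, IL27 and IL31 had no row analysed here, and CTF1 (cardiotrophin 1) alone reached a mean normalized count of 10, at 54.5. OSM, the ligand for OSMR, was at 0.370, so neither group had a mean above 0.740. The highly expressed receptor chain thus had a ligand gene near 0 in the same cells. EBI3 and CNTF were at 1.20 and 0.584.

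All 4 other receptor chains reached a mean normalized count of 10, as did 68.5% of all genes. None of the 4 reached the median level per kilobase. IL11RA, the receptor for IL11, was at 311 (181 per kilobase), above IL6R. IL31RA was at 510 (61.9 per kilobase), IL27RA at 96.0 (32.5 per kilobase) and CNTFR at 23.0 (11.3 per kilobase). IL11RA, like IL6, depends on the length taken, and with the union of its exons it was at 59.1 per kilobase.

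Of the 4 JAK family kinases, 3 were at or above the median level with the representative transcript. With the longest transcript or the union of exons, 2 of them (JAK1 and JAK2) were. JAK1, the main kinase of gp130 signaling, had a mean normalized count of 12472 (2449 per kilobase). JAK2 was at 3677 (524 per kilobase) and TYK2 at 1014 (239 per kilobase). With the union of exons, JAK1 was at 947 per kilobase and TYK2 at 119, against a median of 128. JAK3, a kinase of leukocytes, was at 6.43. Among 5 other STAT genes, 2 were at or above the median, and all 5 were below STAT3 in level per kilobase. STAT2 and STAT6 were at 494 and 422 per kilobase, and at 234 and 229 with the union of exons. STAT5A (50.6) and STAT5B (834) are close paralogs, so their counts are uncertain where reads are shared. STAT4 was at 7.60.

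SOCS3 was higher than the other SOCS family genes in the list. SOCS2 had a mean normalized count of 146, SOCS1 of 15.4 and CISH of 10.8, and per kilobase the level of SOCS3 was 6.42 times that of SOCS2, or 17.4 times with the union of exons. Of the 9 other inhibitors and phosphatases, 8 reached a mean normalized count of 10 (68.5% of all genes did) and 4 were at or above the median level. PTPN11, the phosphatase SHP2 that docks on the same site of gp130 as SOCS3, was at 7206 (1187 per kilobase). PTPN1, PIAS3 and PTPN2 were at 681, 628 and 413 per kilobase, and PIAS1 was at 135. With the union of exons the count of 4 was the same, and PTPN11, PIAS3 and PTPN2 were at 536, 379 and 164. PTPN6, a phosphatase of blood cells, was at 1.94. ADAM17 and ADAM10, the proteases that shed IL6R from the cell surface, were at 772 and 416 per kilobase. With the union of exons they were at 212 and 290, so that their order turned.

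**Figure D4:**
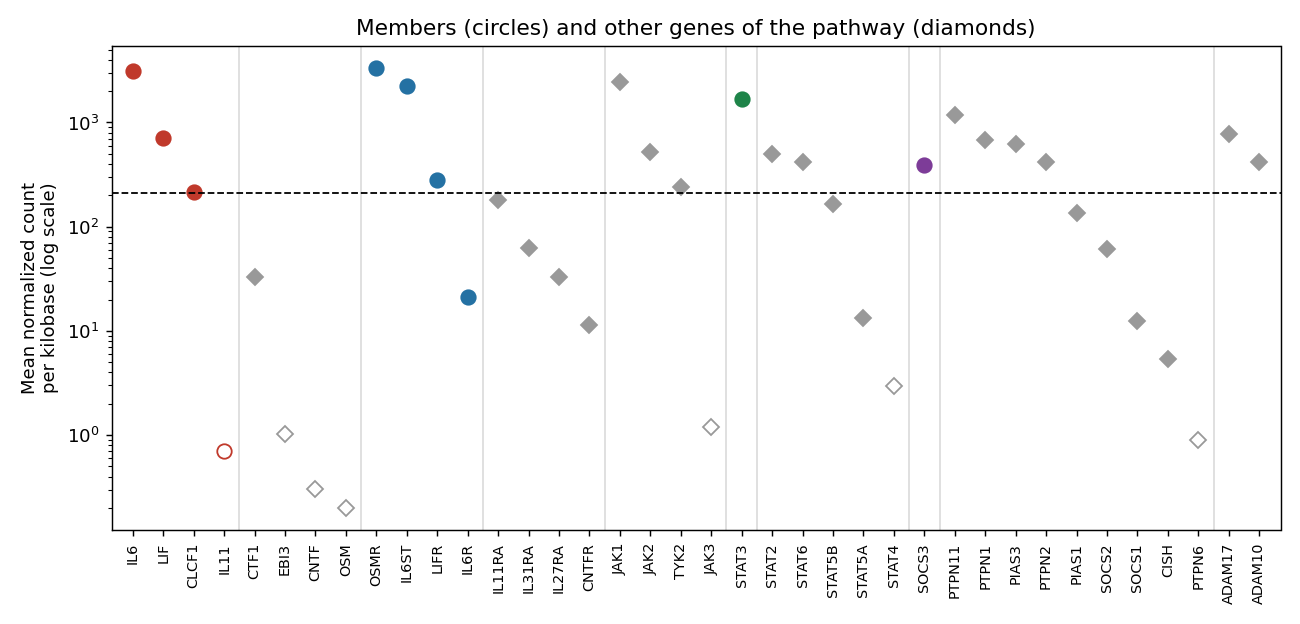
Level per kilobase (log axis) of the 10 genes (colored circles) and of the other listed genes of the pathway (grey diamonds), grouped by role from ligands on the left to shedding proteases on the right. Open symbols have a mean normalized count under 10, and the dashed line is the median of 208. OSMR, IL6, IL6ST, STAT3 and JAK1 are high, and IL11, OSM and IL6R are below the line.

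The promoter windows of the 8 matched genes also differed in CpG content, given as the observed over the expected number of CpG dinucleotides in the 300 bases. The median over all windows was 0.579. IL6 had a ratio of 0.405, which placed it at or above 40.9% of all windows. IL11 was at 0.603, OSMR at 0.708, STAT3 at 0.725, IL6R at 0.882 and IL6ST at 0.917. LIFR has 3 windows, and the one at the start of its representative transcript had a ratio of 1.03, against 0.126 for the most distant. The windows of SOCS3 had ratios of 0.920 and 0.574, and neither starts at the first base of its representative transcript. The highly expressed genes IL6 and IL6ST therefore stood on opposite sides of the median in CpG content.

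Reads from overlapping genes can touch some of these values, because the setting for strand in the counting is not given in the sources used here. Exons of OSMR overlap exons of RICTOR on the other strand, a gene with a mean normalized count of 2740. Exons of IL6 overlap those of STEAP1B (29.7) on the other strand, those of LIFR overlap LIFR-AS1 (18.2) and those of LIF overlap LIF-AS1 (0.210). CLCF1 shares exons on its own strand with a coding gene that has no symbol in GENCODE 44. IL6ST and IL6R each have a processed pseudogene copy, IL6STP1 and IL6RP1, which were not analysed here.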

How the data were processed

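RNA from 3 vehicle and 3 DOX cultures was made into stranded poly(A) libraries. By the paper's methods and the submitters' processing notes, the authors aligned reads to GRCh38 with STAR and normalized gene counts with DESeq2. The gene counter and any low-count filter are not given in the sources used here. The deposited table holds 1 row per gene. The deposited mean normalized count (a signal) averages all 6 libraries, with no correction for length. Its other columns hold the authors' own comparison of DOX with vehicle (log2 fold change, standard error, statistic, p and adjusted p) and were not used, so no test was run. A count test had been planned for the case of counts per library.

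Symbols were matched to GENCODE 44, 17767 directly, 690 through a RefSeq synonym and 1335 not at all. The representative transcript is the Ensembl canonical one. Ranks cover 96.9% of the genes that reached a mean normalized count of 10. The ranking, length and motif functions were tested on made-up inputs with known answers. The members and the lists were chosen with earlier results of these data known, and the genes named are the members, WDR5 and the listed genes of the pathway and markers, beside those that overlap a member. Of the genes listed for the pathway, 2 are not reported here. Promoter windows came from RefSeq (GRCh38.p14). Python 3.11.15, numpy 2.4.6, pandas 2.3.3 and matplotlib 3.10.9 were used.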

Additional observations from a re-analysis of the deposited data

How the results depend on the processing

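The number of the 10 genes at or above the median level per kilobase was 8, and stayed at 8 with the longest transcript, with the union of exons and when all genes with a length were ranked. It was 7 when the ranking covered genes that reached a mean of 50, where CLCF1 fell below the median. The number that reached a mean normalized count of 10 was 9, and also 9 at a minimum of 50 or 100. Of all genes, 68.5% reached a mean of 10. The longest transcript changed the place of 3 genes in the order (IL6, IL6ST and STAT3) and the union of exons that of 2 (IL6 and IL6ST). For the other pathway genes, the longest transcript and the union of exons were added as lengths after seeing the data, and the number of kinases at or above the median then went from 3 to 2. No paired analysis was possible because the table analysed here holds no values of single libraries. For the same reason the alternatives planned for a count test (normalization, filter, DESeq2 in place of edgeR, leaving out a culture and a replicate block) were not run. The mean over both groups limits every value, since it says nothing of the direction or size of a difference between DOX and vehicle.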
